A study of Homo sapiens with 8 samples.

Results

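The sensors of the unfolded protein response (UPR), the genes of endoplasmic reticulum associated degradation (ERAD) and those of the early secretory pathway were followed through 46 genes on 8 arrays of human cancer cell lines. The 46 genes were taken by name from 41810 genes on the array, in 5 roles: 4 sensors, 8 lumenal folding factors and cofactors, 12 ERAD genes, 13 genes of translocation and signal peptide processing and 8 genes of transport from the endoplasmic reticulum (ER) to the Golgi. XBP1, a transcription factor and not itself a sensor, was counted in the sensor role. ARMCX3, an armadillo repeat protein of the mitochondrial outer membrane, was listed with the members. All 46 names were found, on 59 probes, and ERO1L, SELK and SRPR are the older symbols of ERO1A, SELENOK and SRPRA. The list was chosen by a fall of ER stress genes in HCT116, with no threshold on a value, so every HCT116 value below is a description and carries no test.

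Every array compared a transfected culture with a mock culture of its own cell line. The renal cancer lines A498 and 786-O each received miR-139-5p on 1 array and miR-139-3p on another. The breast cancer line MDA-MB-231 received si-GINS1_1 or si-GINS1_2, small interfering RNAs (siRNAs) against the replication gene GINS1. The colorectal cancer line HCT116 received 1 strand of the miR-490 duplex on each of its arrays, miR-490-5p on one and miR-490-3p on the other. On all 8 arrays the mock RNA, labelled as untransfected, was in the Cy3 channel and the transfected RNA in the Cy5 channel, and no array had its dyes swapped. All transfections used the lipid reagent Lipofectamine RNAiMAX, and no array carried cells given a control RNA, so the reagent and the small RNA cannot be told apart. The labels do not say whether the arrays of a line shared a mock extract, nor the time after transfection. Values are log2 ratios of transfected over mock, where -1 stands for 50% of the mock level.

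The UPR is the response of a cell to unfolded protein in the ER. Its sensors are IRE1 (encoded by ERN1), whose nuclease splices the XBP1 transcript, ATF6, which is cleaved in the Golgi to free a transcription factor, and PERK (encoded by EIF2AK3), which phosphorylates a translation initiation factor. Spliced XBP1 and cleaved ATF6 raise the transcription of chaperones, of the ERAD machinery that returns misfolded protein to the cytosol for the proteasome, and of the translocation and coat proteins that move secretory protein into and out of the ER. The array measured total transcript, and neither XBP1 splicing nor ATF6 cleavage nor PERK activity was measured.

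The 4 mature miRNAs are shown because they define 6 of the 8 arrays. Capitals mark the seed, bases 2 to 8, with which a miRNA pairs to its targets, and the 4 seeds differ from each other. Sequences and positions are from RefSeq on GRCh38.p14, chr7:136903205-136903224 and chr7:136903242-136903263 (plus strand) for the miR-490 strands (5p, then 3p), and chr11:72615102-72615124 and chr11:72615066-72615088 (minus strand) for those of miR-139, in the same order.
miR-490-5p: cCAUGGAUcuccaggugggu
miR-490-3p: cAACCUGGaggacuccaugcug
miR-139-5p: uCUACAGUgcacgugucuccagu
miR-139-3p: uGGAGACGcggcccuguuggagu

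Promoters of the members were searched because XBP1 and ATF6 act through short known elements. The 250 bases before the start of transcription (RefSeq, GRCh38.p14) were at hand for 39 of the 46 members. The ER stress element (ERSE), CCAAT and CCACG parted by 9 bases, was found on either strand in XBP1 and CRELD2, that is in 5.13% of the 39 promoters against 0.0806% of all 27305. The shorter ERSE-II, ATTGGNCCACG, was found in HERPUD1 alone among the members and in 0.0513% of all promoters. The core of the UPR element, TGACGTGG, was found in SEC62 and KDELR3, or 5.13% of the members' promoters, and in 0.667% of all. The 3 promoters with an ERSE or ERSE-II are shown with the fixed bases in capitals, each written on the strand of its gene, at chr22:28800583-28800641 (minus strand), chr22:49918534-49918592 (plus strand) and chr16:56932005-56932055 (plus strand). In CRELD2 the element lies on the opposite strand, so it reads CGTGG and then ATTGG.
XBP1: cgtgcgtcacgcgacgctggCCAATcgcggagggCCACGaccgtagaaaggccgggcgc
CRELD2: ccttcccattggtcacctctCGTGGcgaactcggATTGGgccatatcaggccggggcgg
HERPUD1: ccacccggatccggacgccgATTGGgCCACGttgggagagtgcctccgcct
The element ended 33 bases before the start in XBP1, 61 in CRELD2 and 106 in HERPUD1. The shorter words inside these elements were common: CCACG was found in 25 of the 39 members' promoters and in 33.3% of all, and CCAAT in 28 of 39 and in 33.0% of all. ERSE was chosen for this search because UPR genes are known to carry it, and a match is a description of sequence, not a measured binding site.

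Measurement conditions were close across the slide that held all 8 arrays. Median spot brightness was between 19.8 and 25.02 over a local background of 14 to 17, and the miR-490-5p array had the highest Cy3 brightness and Cy3 background. The mock levels of the 46 members on both arrays of a line differed with an SD between 0.061 (MDA-MB-231) and 0.095 (A498) log2 units, and by at most 0.17 in HCT116. GINS1, the siRNA target, had log2 ratios of -1.31 with si-GINS1_1 and -1.92 with si-GINS1_2. Markers of the labelled cell types were mixed. Of the renal markers PAX8, PAX2, CDH6 and LRP2 were highest in both renal lines and well above background there, while CA9 was not well above background in A498. Of 6 colorectal markers CDX2 and EPCAM were highest in HCT116, CDX1 was higher in A498, and VIL1, LGALS4 and CDH17 were not well above background in HCT116. Of 5 basal breast markers CAV1 and AXL were highest in MDA-MB-231, and VIM, MSN and CD44 were higher in a renal line. Of 4 luminal breast markers PGR and FOXA1 were not well above background in MDA-MB-231, and ESR1 and GATA3 were. Arrays compared total RNA of whole cultures, so fewer cells with a transcript and less transcript per cell cannot be told apart.

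In HCT116 most members lay below mock on both arrays. With miR-490-5p the median log2 ratio of the members was -0.39, against 0.01 over all genes, and 41 of 45 measured members were below 0 (91.1%, against 46.6% of all genes). With miR-490-3p the median was -0.29, against 0.01, and 35 of 46 members were below 0 (76.1%, against 48.0%). A log2 ratio at or below -1 was found in 7 of 45 members on the miR-490-5p array, where 1.11% of all genes had one. On the miR-490-3p array 6 of 46 members and 0.668% of all genes had one. No member was at or above 1 on either array, where 0.305% (miR-490-5p) and 0.409% (miR-490-3p) of all genes were. Since the members were picked by these arrays, nothing is read from these shares. The members nearest to the line of -1 were PPIB (-1.05) inside and SEL1L (-0.94) outside it with miR-490-5p, and HERPUD1 (-1.08) inside and OS9 (-0.97) outside it with miR-490-3p. With each array centred on its median in place of loess, the median of the members with miR-490-3p was -0.12 and 26 were below 0. SEC62, a subunit of the translocon, was well above background on 4 of the 8 arrays and not on the miR-490-5p array.

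**Figure D1:**
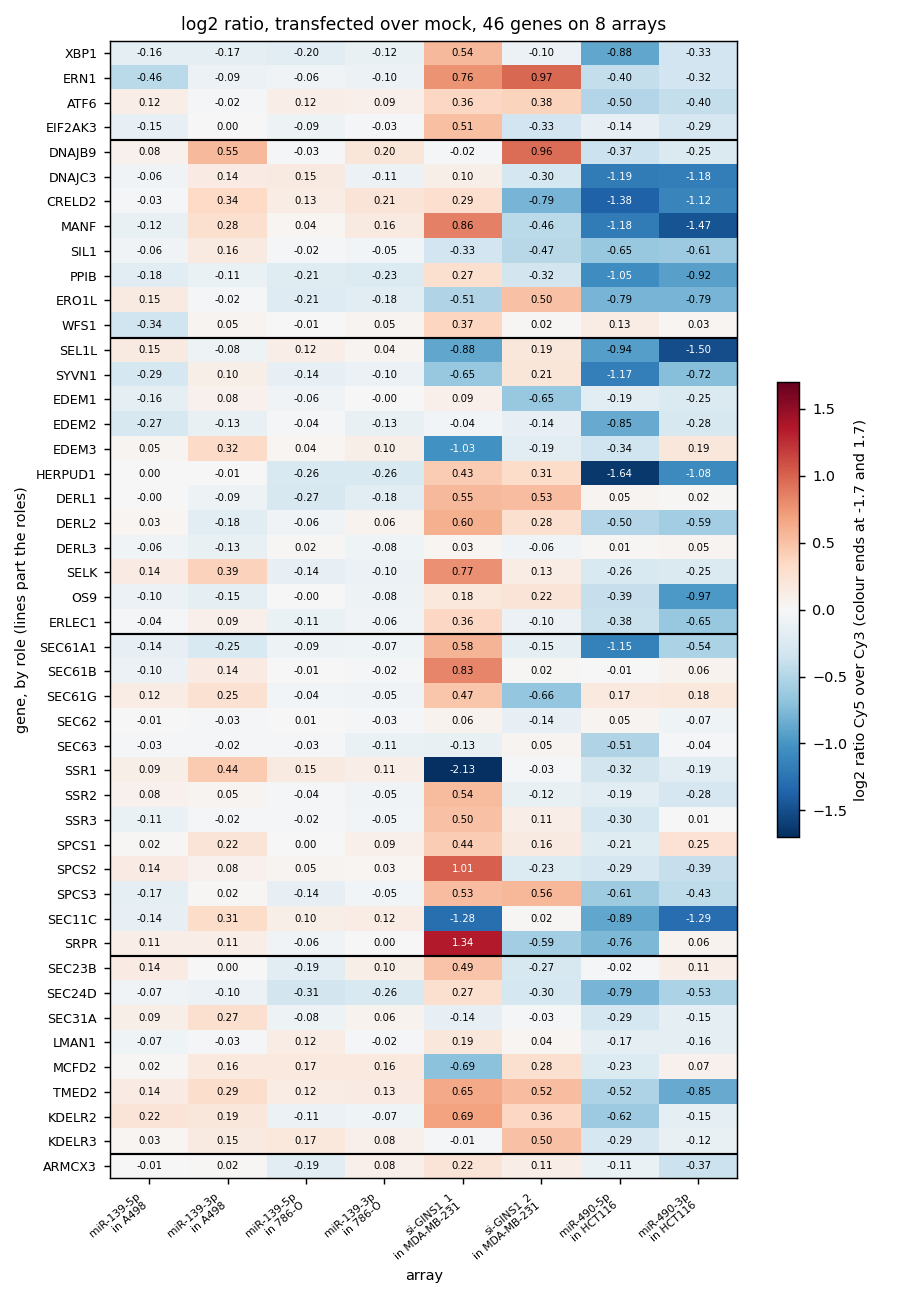
Log2 ratio of transfected over mock for the 46 genes (rows, parted by role) on the 8 arrays (columns), with each value printed in its cell and blue for values below mock. The HCT116 columns on the right are blue through the lumenal folding factors and much of ERAD, the miR-139 columns on the left stay between -0.46 and 0.55, and the si-GINS1 columns hold both colours.

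Transcripts of the sensors, and of XBP1 grouped with them, were all below mock on both HCT116 arrays. The medians of these 4 genes were -0.45 (miR-490-5p) and -0.33 (miR-490-3p). XBP1, the transcription factor whose transcript IRE1 splices, had a mock level of 10.80 and a transfected level of 9.92 (log2 intensity) with miR-490-5p, 54.5% of mock. With miR-490-3p it went from 10.69 to 10.36, 79.6% of mock, and on the other arrays its log2 ratio was between -0.20 and 0.54. XBP1 thus stood further below mock with miR-490-5p, by 0.55 log2 units. In CRELD2, the other member with an ERSE, this gap was 0.26, and a link between the element and the ratios was not tested. ATF6 had log2 ratios of -0.50 and -0.40, against -0.02 to 0.38 on the other arrays. ERN1 had -0.40 and -0.32 in HCT116 and spanned -0.46 to 0.97 elsewhere, so its HCT116 values were inside the range of the other lines. EIF2AK3 had log2 ratios of -0.14 and -0.29, also inside the range of the other arrays (-0.33 to 0.51).

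The lumenal folding factors held the lowest median of the 5 roles, -0.92 (miR-490-5p) and -0.85 (miR-490-3p), and 7 of 8 were below 0 on each array. CRELD2, an ER protein that ER stress induces (probe at hg19 chr22:50320918-50320977), went from a log2 level of 10.93 in mock to 9.55 with miR-490-5p and from 10.85 to 9.73 with miR-490-3p. These levels are 38.4% and 46.02% of mock, and the other arrays spanned log2 ratios of -0.79 to 0.34. MANF, a small lumenal and secreted protein that stress also induces (probe at hg19 chr3:51426687-51426746), lay outside the range of the other arrays too (-0.46 to 0.86), with 12.71 against 11.53 and 12.84 against 11.37. Its log2 ratios were -1.18 and -1.47. DNAJC3, a co-chaperone of BiP that restrains PERK, had near equal values with both strands, from 8.81 to 7.63 on each array, or log2 ratios of -1.19 and -1.18. A second, dim DNAJC3 probe, whose mean level of 5.78 was close to the floor of 5.64 that the background offset sets, had 0.04 and -0.00. PPIB, the prolyl isomerase cyclophilin B, was at 48.3% (miR-490-5p) and 52.9% (miR-490-3p) of mock.

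The remaining folding factors moved less. ERO1L, the oxidase that recharges protein disulfide isomerase, had -0.79 with each strand. SIL1, a nucleotide exchange factor of BiP, had -0.65 and -0.61. DNAJB9, another co-chaperone of BiP and a known XBP1 target, had -0.37 and -0.25. WFS1, an ER membrane protein, was the exception at 0.13 and 0.03.

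**Figure D2:**
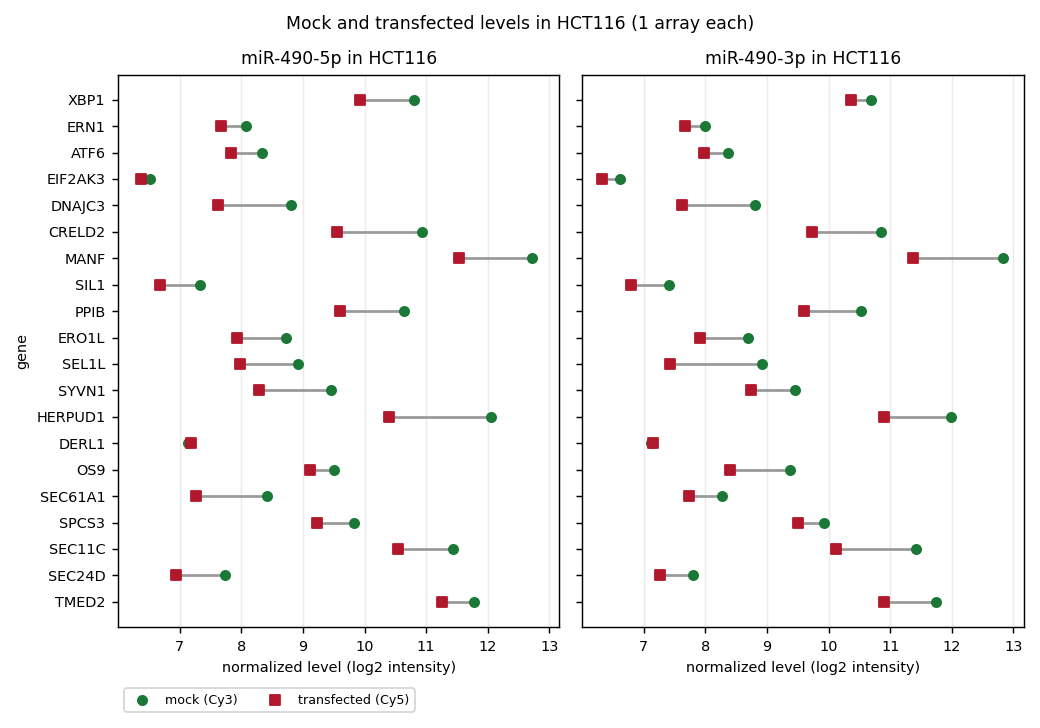
Normalized log2 intensity of the 20 named genes in mock (green circles, Cy3) and transfected (red squares, Cy5) HCT116, for miR-490-5p on the left and miR-490-3p on the right, 1 array each. MANF, HERPUD1, CRELD2 and SEC11C have long bars on both arrays, and DERL1 has almost none.

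The ERAD genes ranged widely around medians of -0.38 (miR-490-5p) and -0.43 (miR-490-3p), with 10 and 9 of 12 below 0. HERPUD1, a membrane protein of the HRD1 ligase complex (probe at hg19 chr16:56977700-56977759), had the lowest value of any member with miR-490-5p. It went from 12.05 to 10.40, a log2 ratio of -1.64 or 32.1% of mock. With miR-490-3p it went from 11.98 to 10.91, or -1.08, and on the 6 other arrays it was between -0.26 and 0.43. HERPUD1 is the member whose promoter holds the ERSE-II printed above.

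SEL1L and SYVN1 form the core of the main ERAD ligase, SYVN1 (HRD1) as the ubiquitin ligase and SEL1L as its adaptor. SEL1L was lowest of the members with miR-490-3p, from 8.92 to 7.42 (log2 ratio -1.50), and went from 8.92 to 7.99 with miR-490-5p (-0.94). Its other 2 probes were dimmer and gave -0.14 and -0.47 with miR-490-5p and -0.12 and -0.57 with miR-490-3p, below mock but smaller and nearly equal between the strands. SYVN1 showed the opposite order of the strands, with -1.17 for miR-490-5p and -0.72 for miR-490-3p. OS9 and ERLEC1, the lectins that hand glycoproteins to this ligase, were further below mock with miR-490-3p (-0.97 and -0.65) than with miR-490-5p (-0.39 and -0.38). A second ERLEC1 probe had the opposite order (-0.34 for miR-490-3p, -0.58 for the other strand), so the order of the strands is not settled for ERLEC1.

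The derlins, rhomboid-like channel proteins, did not share a value. DERL2 was at -0.50 and -0.59, while DERL1 was at 0.05 and 0.02 and DERL3 at 0.01 and 0.05. The mannose-trimming EDEM proteins also differed: EDEM2 had -0.85 and -0.28, EDEM1 had -0.19 and -0.25, and EDEM3 had -0.34 and 0.19. SELK, a selenoprotein bound to derlins, had -0.26 and -0.25.

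Translocation genes were nearer to mock, with medians of -0.31 (miR-490-5p) and -0.07 (miR-490-3p). SEC61A1, the channel subunit of the Sec61 translocon, went from 8.42 to 7.27 with miR-490-5p (-1.15) and from 8.28 to 7.74 with miR-490-3p (-0.54). The small Sec61 subunits stayed near mock, SEC61B at -0.01 and 0.06 and SEC61G at 0.17 and 0.18. SEC11C, a catalytic subunit of signal peptidase, had -0.89 and -1.29 and was the other translocation gene below -1. Among its partner subunits SPCS3 had -0.61 and -0.43, SPCS2 -0.29 and -0.39, and SPCS1 -0.21 and 0.25. SRPR, the docking receptor of the signal recognition particle, had -0.76 (miR-490-5p) and 0.06 (miR-490-3p). SEC63, which links the translocon to BiP, had -0.51 and -0.04, and its second, dimmer probe had 0.00 and -0.06. The translocon-associated proteins among the members, SSR1, SSR2 and SSR3, lay between -0.32 and 0.01. The SSR1 probes disagreed with miR-490-5p, where the others gave -0.61 and 0.13, and SSR4, which is no member, had -0.64 and -0.21.

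All 8 genes of ER to Golgi transport were below mock with miR-490-5p and 6 of 8 with miR-490-3p, at medians of -0.29 and -0.15. SEC24D, a cargo adaptor of the COPII coat and a known XBP1 target, had -0.79 and -0.53. TMED2, a p24 cargo receptor, had -0.52 and -0.85, and it was above mock on all 6 other arrays (0.12 to 0.65). KDELR2, which returns chaperones to the ER, had -0.62 and -0.15. The other 5 lay between -0.29 (KDELR3 and SEC31A with miR-490-5p) and 0.11 (SEC23B with miR-490-3p). ARMCX3 was at -0.11 and -0.37.

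The strands of miR-490 were compared as a difference of their HCT116 log2 ratios, miR-490-3p minus miR-490-5p, with no test. The median difference over 45 members was 0.08, against -0.002 over all genes. Of the members 14 (31.1%) were below 0, that is lower with miR-490-3p, against 50.4% of all genes. No member differed by 1 or more, where 1.3% of all genes did. SRPR (0.82), SEC61A1 (0.61), EDEM2 (0.57), HERPUD1 (0.56) and XBP1 (0.55) stood further below mock with miR-490-5p. OS9 (-0.59), SEL1L (-0.56) and SEC11C (-0.41) stood further below mock with miR-490-3p. The SEL1L gap is that of its brightest probe, and its dimmer probes were nearly equal between the strands. Each gap is between 2 single cultures, so the spread between cultures was not measured.

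Genes grouped by the branch known to raise them showed other medians than the roles. The 6 genes assigned to ATF6 (XBP1, CRELD2, MANF, SEL1L, HERPUD1 and DERL3) had medians of -1.06 with miR-490-5p and of -1.10 with the other strand. The 8 assigned to IRE1 and XBP1 (DNAJB9, DNAJC3, EDEM1, SEC61A1, SSR1, SPCS3, SRPR and SEC24D) had medians of -0.68 and -0.34. DERL3 was the ATF6 gene that did not lie below mock. The assignments come from textbook knowledge and were made with these values known, and many targets answer to both branches.

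Other genes of the pathway that are not members were read from 5 lists. These lists too were chosen with earlier results of these data known, so their HCT116 values are a description. Of all genes 46.6% (miR-490-5p) and 48.0% (miR-490-3p) were below 0. All 11 ER lumen chaperones and isomerases were below mock with both strands, at medians of -1.29 and -1.01, and the farthest were PDIA4 (-2.39 and -1.57), HSPA5, the chaperone BiP (-2.35 and -1.41), and HSP90B1 (-1.62 and -1.27). Of the PERK and ATF4 genes all 9 measured were below 0, at medians of -1.50 and -0.45, and the farthest by the mean of both arrays were TRIB3 (-2.08 and -1.54), ASNS (-2.37 and -1.18) and DDIT3 (-1.54 and -1.44). The other ERAD factors, which act beside the members, were split: 13 of 14 were below 0 with miR-490-5p (median -0.25) and 4 of 14 with miR-490-3p (median 0.23). The other translocation factors had medians of -0.25 and -0.03, and the other ER to Golgi factors 0.04 and -0.04. No gene of these last 3 lists was at or below -1 on either array.

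**Figure D3:**
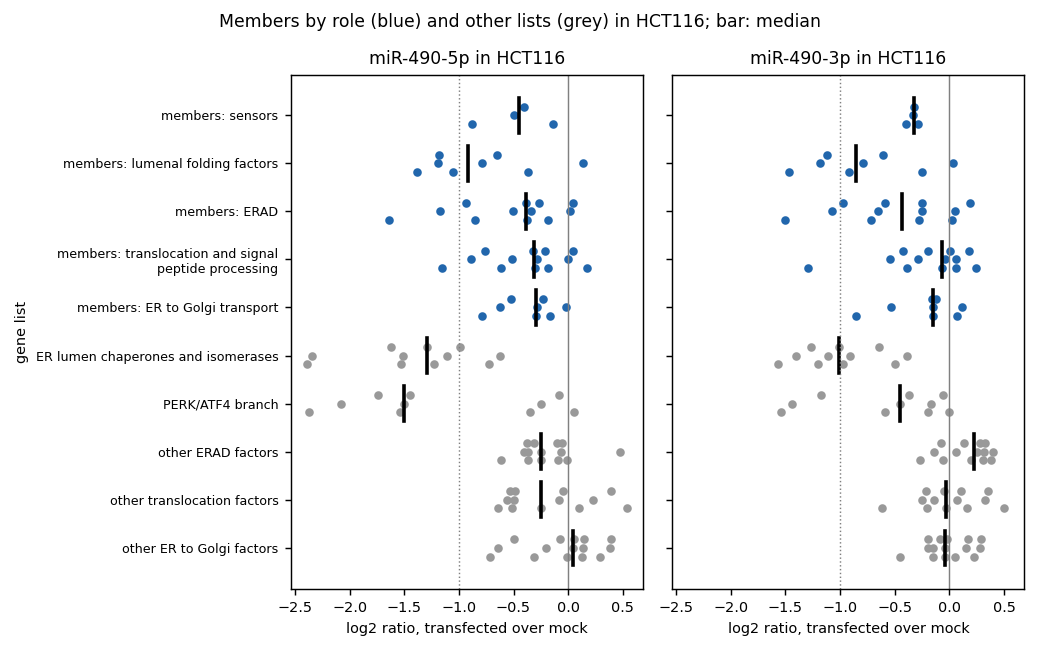
Log2 ratio of transfected over mock in HCT116 for members by role (blue) and for 5 other gene lists (grey), 1 point a gene, with miR-490-5p on the left and miR-490-3p on the right. Black bars are medians of genes well above background and the dotted line is at -1. Among the roles the lumenal folding factors have the lowest median on both arrays. Among the other lists the lowest is the PERK and ATF4 list with miR-490-5p (-1.50) and the chaperones with miR-490-3p (-1.01).

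In MDA-MB-231 the members went in both directions. Of 46 members tested against 0 with limma over all probes, 5 rose and 1 fell at an adjusted p under 0.05 with si-GINS1 (n = 2 arrays, 1 siRNA each), where 3.32% of all probes rose and 3.63% fell. An unadjusted limma p under 0.05 was reached by 14 of 46 members and by 7214 of all 27806 probes, so it was common on the whole array. The 5 that rose came from 4 of the roles. ERN1, which encodes IRE1, rose by a mean of 0.87 ± 0.15 (SD, n = 2; SE 0.11, limma adjusted p = 0.0260), with 0.76 for si-GINS1_1 and 0.97 for si-GINS1_2. Its second, dim probe (mean level 5.85) gave 0.04 and 0.13. ATF6 rose by 0.36 and 0.38 (mean 0.37, SE 0.047, limma adjusted p = 0.0260), so transcripts of both these sensors were higher with each siRNA. EIF2AK3 had 0.51 and -0.33 and XBP1 0.54 and -0.10, values that differed in sign between the siRNAs.

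SPCS3, a subunit of signal peptidase, rose by 0.53 and 0.56 (SE 0.044, limma adjusted p = 0.0153), the lowest p of the members. TMED2 rose by 0.65 and 0.52 (SE 0.062, limma adjusted p = 0.0204). DERL1 rose by 0.55 and 0.53 (SE 0.076, limma adjusted p = 0.0295). In HCT116 it stayed near mock, as DERL3 did. SIL1 fell by 0.33 and 0.47 (mean -0.40, SE 0.071, limma adjusted p = 0.0452). SPCS3, TMED2, ATF6, ERN1 and SIL1 lay below mock in HCT116, so the first 4 of them had opposite signs in these lines and SIL1 the same sign. A difference between the lines was not tested.

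For most members the siRNAs did not give the same value. With si-GINS1_1 the median of the members was 0.32 and 33 of 46 were above 0, and with si-GINS1_2 the median was 0.02 and 24 were above 0. The medians over all genes were 0.02 and 0.00. The signs differed for 25 members, and 9 differed by 1 or more. SSR1, a translocon-associated protein, had -2.13 with si-GINS1_1 and -0.03 with si-GINS1_2, but its probes disagreed: the others gave -1.05 and 0.09 with si-GINS1_1 and -0.26 and 0.72 with si-GINS1_2. SRPR had 1.34 and -0.59, SPCS2 1.01 and -0.23, and MANF 0.86 and -0.46. In the other direction SEC11C had -1.28 and 0.02, and SEL1L had -0.88 and 0.19. EDEM3 had -1.03 and -0.19 and was not called (limma adjusted p = 0.147). The probes of MCFD2, part of the LMAN1 cargo receptor, also disagreed with si-GINS1_2, at 0.28 and -0.87.

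**Figure D4:**
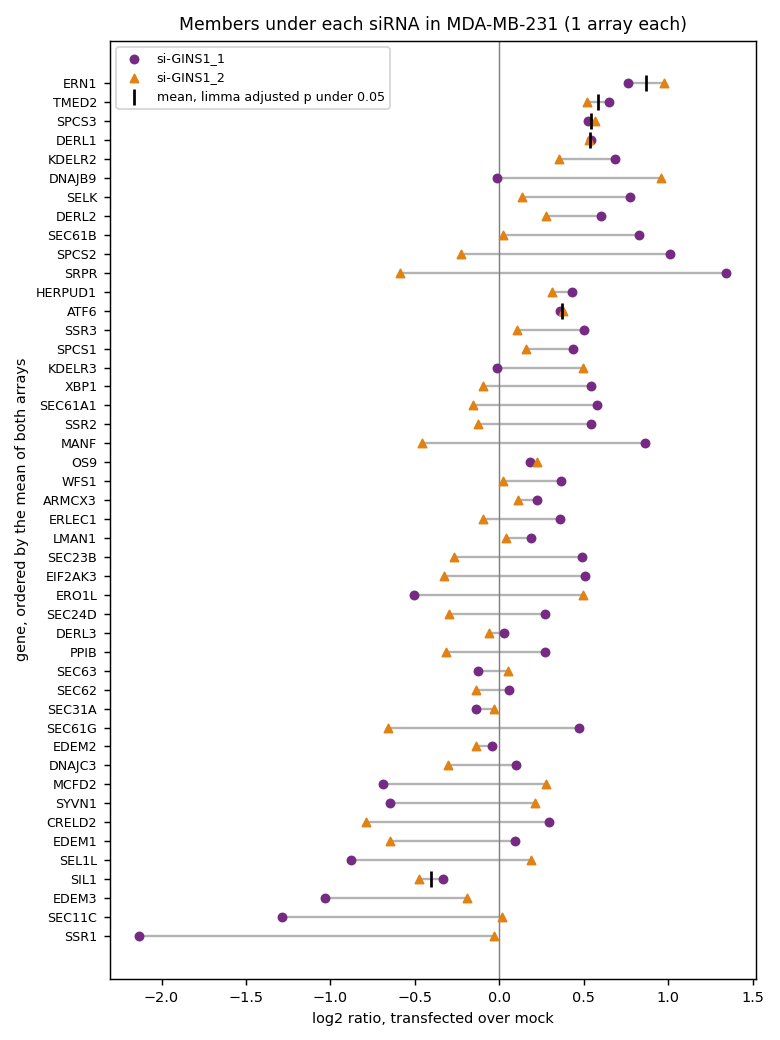
Log2 ratio of transfected over mock in MDA-MB-231 for each member with si-GINS1_1 (purple circles) and si-GINS1_2 (orange triangles), ordered by the mean of both arrays, with a black tick at the mean of the 6 members at a limma adjusted p under 0.05. The called genes have short bars away from 0, as do some genes that were not called, such as HERPUD1 and OS9. SSR1, SRPR and MANF have the longest bars.

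The pathway lists beside the members were also read in this group. No ER lumen chaperone was called of 11, and HSPA5 itself had 1.63 with si-GINS1_1 and -0.48 with si-GINS1_2. Of the PERK and ATF4 list 1 of 10 rose, and of the other ERAD factors 2 of 14 rose and 1 fell. Of the other translocation and ER to Golgi factors 1 of 13 and 1 of 15 rose. Of all probes 3.32% rose and 3.63% fell, and so few calls are not read as a result about the lists. The si-GINS1 calls rest on 2 arrays and on a spread pooled with the miR-139 arrays of the renal lines. With limma on the si-GINS1 arrays alone, with a variance trend and robust prior, or on the scanner log ratio, 0 members were called. Of all 27806 probes 0, 0 and 75 were called in these fits. Unadjusted p was under 0.05 in 9, 14 and 10 members and in 2541, 7122 and 5282 probes. Leaving out either siRNA left a lone array, assumed to vary like the other groups, so calls of those fits are not interpreted. With arrays centred on the median in place of loess, 285 probes fell and 2688 rose over the whole array, against 1009 and 924 with loess, and 7 members rose and 0 fell.

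In the renal lines 0 members were called, for either strand of miR-139. For miR-139-5p 45 members were tested with limma (n = 2 arrays, 1 line each), where 0.0129% of all probes were called. Unadjusted p was under 0.05 in 1 member and in 591 of 23292 probes. For miR-139-3p 0 of 45 were called, where 0% of all probes were. Unadjusted p was under 0.05 in 1 member and in 1014 of 22817 probes. Values of single members were small in both lines. With miR-139-5p the means of the members were between -0.26 and 0.13 and no array had a value further than 0.46 from 0, that of ERN1 in A498 (-0.46, against -0.06 in 786-O), where its second, dim probe gave 0.06. SPCS3 had -0.17 in A498 and -0.14 in 786-O (limma adjusted p = 0.99998). With miR-139-3p the means were between -0.18 and 0.37. DNAJB9 was highest, at 0.55 in A498 and 0.20 in 786-O, and TMED2 had 0.29 and 0.13 (limma adjusted p = 0.99993).

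The strands of miR-139 were set against each other in the same fit. None of 45 members was called with limma, where 0% of all probes were. None had an unadjusted p under 0.05, which 150 of 22183 probes had. The differences, miR-139-3p minus miR-139-5p, were between -0.15 (SEL1L) and 0.35 (DNAJB9), and the median SE of a difference was 0.20. These p-values do not show that the strands acted alike on the members.

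Mock levels of single members differed by line, and levels are compared here between lines within a gene. The highest line led the next by more than both arrays of any line differed in 36 of 46 members. HCT116 was that line for 13 of them. By any margin, HCT116 and MDA-MB-231 were each the highest line in 14 members. The same count over all genes was not made, so nothing about the pathway is read from these counts. Of the members that HCT116 led, CRELD2 was the clearest. Its log2 level was 10.89 in mock HCT116 against 9.11 in 786-O, 8.87 in A498 and 8.67 in MDA-MB-231. SEC11C was at 11.42 in HCT116 and 9.92 in A498, the next line, and MANF at 12.77 against 11.72 in MDA-MB-231. DNAJC3 was at 8.81 in HCT116, 8.05 in MDA-MB-231, 7.36 in A498 and 6.80 in 786-O. Of the 13 members that mock HCT116 led, 5 were at or below -1 on at least 1 HCT116 array (these 4 and PPIB) and 8 were not, and of the other 33 members 4 were. The mock level is also the denominator of each ratio, so these counts are a description. HERPUD1 was not of this kind, with 12.19 in A498 above 12.02 in HCT116, 11.13 in 786-O and 10.82 in MDA-MB-231.

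The sensors and XBP1 had other orders. ERN1 was highest in A498 (8.80) followed by HCT116 (8.03), 786-O (7.35) and MDA-MB-231 (7.002), the line in which it rose with si-GINS1. XBP1 was also highest in A498 (11.25), then near equal in HCT116 (10.74) and 786-O (10.66), which did not differ beyond their spread, and lowest in MDA-MB-231 (10.24). EIF2AK3 was between 6.43 and 6.57, and neighbouring lines differed by less than both arrays of MDA-MB-231 did (0.11). ATF6 was between 7.93 (786-O) and 8.41 (MDA-MB-231). Its levels in MDA-MB-231 and HCT116 (8.35) did not differ beyond the spread of their arrays. MCFD2 was highest in MDA-MB-231 (10.89) and SEC31A, a coat protein of COPII, was lowest in HCT116 (8.20, with 9.28 in 786-O next). SSR1 was lowest in A498, at 9.76 against 11.39 in HCT116. These differences between lines rest on 2 mock channels a line, which may be the same extract, and were not tested.

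**Figure D5:**
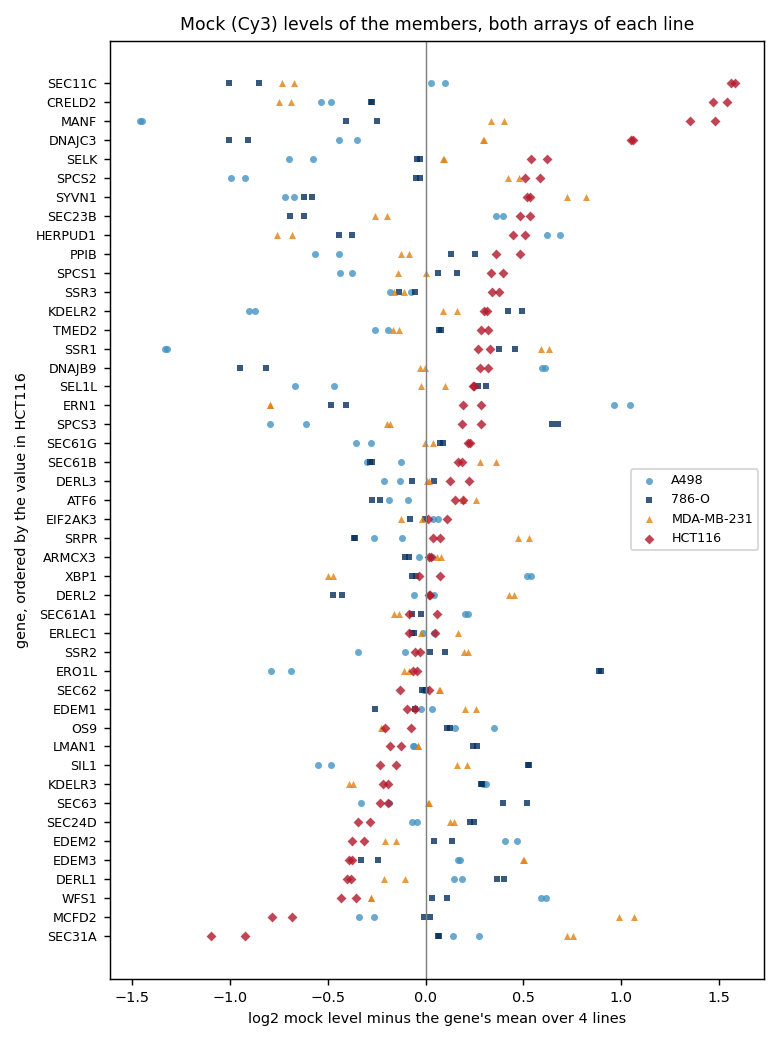
Mock level of each member on both arrays of each of the 4 lines, as log2 intensity minus the mean of the gene over the lines, ordered by the value in HCT116 (red diamonds). SEC11C, CRELD2, MANF and DNAJC3 stand to the right in HCT116, SEC31A and MCFD2 to the left, and both arrays of a line lie close together.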

How the data were processed

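The members, their roles and the other gene lists were chosen with earlier results of these data known. Per the file headers, the authors scanned 1 slide of 8 Agilent 2-colour arrays and processed it with Agilent Feature Extraction 11.5.1.1. The deposited intensity columns are the mean signal of each spot and its median local background, not normalized. A log10 ratio (Cy5 over Cy3), which the scanner software computes after corrections of its own, was deposited for each spot, and the value table of the series repeats it with a largest difference of 0. It served as an alternative, converted to log2.

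The background correction was normexp with offset 50 (limma 3.58.1, R 4.3.3). Loess within arrays, fitted without the 2075 control spots, normalized the ratios, and replicate spots were averaged by probe. The offset draws the ratio of dim probes toward 0 and sets a floor of 5.64 log2 units. Outlier spots were left out, and 0 spots were saturated. Channel levels were taken after quantile normalization of mean intensity between arrays. The brightest probe stood for a gene, named as in the array annotation (hg19). The place of probes within exons was not analysed here.

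Ratios were tested against 0 with limma, which leaves out the spread of the mock, in 1 fit of 8 arrays (5 group coefficients, 3 residual degrees of freedom). Probes entered when either channel was well above background on each array of the group (22183 to 27806 probes). Benjamini-Hochberg adjusted p under 0.05 made a call. The fit was tested on simulated data. The number of arrays limits the precision. The spread behind each p was pooled over the si-GINS1 and miR-139 groups, so it mixes differences between siRNAs and between cell lines. It does not measure the spread between cultures treated alike. The miR-490 groups have 1 array each and no test. The miR-139 arrays pair by cell line (correlation of deviations from group means 0.0753 over 22183 probes). Members named with values were those of the sensor role, those at or beyond 1 or -1 in HCT116 and those called. The next lowest in HCT116 up to 20 were added, and others after their values were seen. Of each other list at most the 3 farthest from 0 were named. Alternatives covered the background, the normalization, probe choice, the filter, dye bias, the samples in the fit, the variance prior, a cell line block and leaving out each array. Tables and figures used Python 3.11.15, numpy 2.4.6, pandas 2.3.3 and matplotlib 3.10.9.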

Additional observations from a re-analysis of the deposited data

How the results depend on the processing

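Median log2 ratios of the members moved with the processing. On the miR-490-5p array the median (-0.39) was -0.52 with the scanner log ratio, -0.24 with median centring and -0.47 after subtraction of the mean of the arrays of other lines. On the miR-490-3p array (-0.29) it was -0.40 with an offset of 10, -0.40 without background correction, -0.46 with the scanner log ratio, -0.12 with median centring and -0.38 after that subtraction. With median centring it was 0.17 for miR-139-3p in A498, 0.13 for miR-139-3p in 786-O, 0.77 for si-GINS1_1 and 0.25 for si-GINS1_2, while the median of all genes was 0.14 on the miR-139-5p array of A498 and 0.18 on the si-GINS1_1 array. For miR-139-5p in A498 (-0.02) it was -0.038 with an offset of 10, -0.050 without background correction, -0.047 with the scanner log ratio, and turned to 0.30 with median centring and 0.10 after subtraction of the other lines. That subtraction also turned miR-139-5p in 786-O to 0.030 and gave 0.12 and 0.061 for miR-139-3p in A498 and 786-O. Members at or below -1 numbered 12 on the miR-490-5p array with the scanner log ratio, where 3.84% of all genes were, against 1.11% in the main setting. They numbered 2 on the miR-490-3p array with median centring, where 0.329% of all genes were, against 0.668%. Members called with si-GINS1 (6) numbered 0 with the scanner log ratio, 0 in a fit of that group alone, 0 with a variance trend and robust prior, 20 with the cell line as a random block, and 16 to 31 when either siRNA was left out. With the random block 10516 of all 27806 probes were called, against 1933 in the main fit, so calls rose over the whole array. Fits without either siRNA kept a lone array in the group, so their counts are not given and nothing about the members is read from them. The 6 called members kept their direction under all alternatives, with SIL1 at -0.12 under median centring and -0.09 against the groups in other lines. For miR-139-5p, miR-139-3p and their contrast 0 members were called under every alternative, the replicate block by cell line included. Where an alternative moved a value, the cause was not tested. Arrays without replicates, a missing dye swap and the absence of a control RNA limit every HCT116 value.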
